A study of Mus musculus with 52 samples.

Results

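The 33 genes described here are markers and working parts of platelets and megakaryocytes. They were chosen by name from the 57010 genes of the deposited count table, with no measured value in the rule, and all 33 were found in it. Earlier results of these data were known when the list was chosen. RNA sequencing was done on 4 materials from hCD40tg mice, which carry human CD40, bearing tumors of MC38-CEACAM5, a mouse colon carcinoma line that makes the tumor antigen CEACAM5. The mice received ATOR-4066, a bispecific antibody that binds CD40 and CEACAM5, or CD40 mAb, an antibody to CD40 alone, or vehicle. The sources used here do not give age, strain background, dose, sampling time or the promoter of the transgene. In blood there were 4 libraries with ATOR-4066, 5 with CD40 mAb and 5 with vehicle, and in whole tumor 4, 5 and 4 in the same order. In that order, CD45+Ly6G- cells sorted from tumors gave 3, 3 and 4 libraries, and lymph node gave 5, 4 and 4.

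A platelet has no nucleus, and its RNA is what the megakaryocyte packed into it in the bone marrow, together with a granule cargo of chemokines and adhesion proteins. The GPIb-IX-V complex catches von Willebrand factor on a damaged vessel wall, the collagen receptor glycoprotein VI and the podoplanin receptor CLEC-2 start the activation signal, and integrin alphaIIb beta3 then binds fibrinogen and holds platelets together. ADP acting on P2RY12 and thromboxane made by PTGS1 and TBXAS1 spread the activation to neighboring platelets. GATA1, its cofactor FOG-1, NF-E2, GFI1B and ETS factors such as FLI1 are known regulators of megakaryocyte genes, and GATA1 and GFI1B also act in red cell precursors.

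Total counts per library, in M (1e+06 counts), ranged from 33.5 to 44.1 in blood, 47.4 to 64.2 in tumor, 30.2 to 47.4 in sorted cells and 46.3 to 138.5 in lymph node. Haemoglobin genes took 69.8% to 88.2% of the counts in blood, which left 4.14 M to 11.6 M counts for all other genes, and under 1% elsewhere. A vehicle lymph node library and an ATOR-4066 tumor library, both replicate 3, go against their labels and were left out. Their B cell markers summed to 4.07 CPM (counts per 1e+06 counts of the library) in that lymph node, against 2128 to 3535 CPM in the remaining lymph nodes of the vehicle group, and to 2416 CPM in that tumor, against 7.17 to 31.4 CPM in the other ATOR-4066 tumors. The labels name no batch and do not say that replicates are separate animals beyond a number in the title, so p-values measure the spread between these libraries, which may be technical.

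Promoters of a few members are shown because the genes moved together in blood and because GATA and ETS motifs mark many megakaryocyte genes. RefSeq sequences of assembly GRCm38.p6 were at hand for 28 of the 33 members, as 31 promoters of 300 bases around a gene start, and none for Bin2, Vwf, Thbs1, Itgb3 and Gng11. GATA motifs were searched as AGATAA or TGATAA or AGATAG or TGATAG, and ETS motifs as CGGAAG or AGGAAG, on both strands. No GATA match overlapped an ETS match. Capitals mark the matches, and a motif on the opposite strand appears as its reverse complement. The Gp1ba promoter lies at chr11:70638872-70639171 on the plus strand, that of Gp5 at chr16:30310732-30311031 on the minus strand, that of Pf4 at chr5:90772185-90772484 on the plus strand and that of Treml1 at chr17:48359666-48359965 on the plus strand. Each is printed along its own gene's strand, the first 3 with both motifs and Treml1, which gave the most pronounced change in blood, with neither.
Gp1ba: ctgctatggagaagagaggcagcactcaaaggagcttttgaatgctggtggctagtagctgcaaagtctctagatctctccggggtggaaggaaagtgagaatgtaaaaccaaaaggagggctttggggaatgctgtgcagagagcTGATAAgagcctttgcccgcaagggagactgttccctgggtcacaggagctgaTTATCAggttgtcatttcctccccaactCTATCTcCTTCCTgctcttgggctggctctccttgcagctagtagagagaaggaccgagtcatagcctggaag
Gp5: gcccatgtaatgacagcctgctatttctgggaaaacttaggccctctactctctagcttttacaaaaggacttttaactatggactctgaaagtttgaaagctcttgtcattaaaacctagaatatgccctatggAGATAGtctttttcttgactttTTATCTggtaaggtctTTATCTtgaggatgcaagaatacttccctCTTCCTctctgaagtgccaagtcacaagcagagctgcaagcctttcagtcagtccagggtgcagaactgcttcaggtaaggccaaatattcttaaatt
Pf4: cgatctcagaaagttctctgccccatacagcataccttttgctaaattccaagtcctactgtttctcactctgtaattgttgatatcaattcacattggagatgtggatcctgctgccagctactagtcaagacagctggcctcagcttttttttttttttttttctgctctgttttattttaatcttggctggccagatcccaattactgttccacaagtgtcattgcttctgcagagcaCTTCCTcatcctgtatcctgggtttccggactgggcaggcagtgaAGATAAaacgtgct
Treml1: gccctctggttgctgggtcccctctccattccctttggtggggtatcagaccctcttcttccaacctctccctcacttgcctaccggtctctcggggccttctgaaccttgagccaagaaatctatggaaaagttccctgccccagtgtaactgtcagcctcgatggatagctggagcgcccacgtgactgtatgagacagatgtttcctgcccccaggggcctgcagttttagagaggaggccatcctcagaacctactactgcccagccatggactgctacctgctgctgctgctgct
A GATA motif stood in 11 of the 31 member promoters (35.5%), against 29.8% of 32851 mouse promoters of the same length. An ETS motif stood in 18 (58.1%), against 46.5%, and both stood in 6 (19.4%), against 12.6%. Among the 11 genes taken here as defining platelets (Pf4, Ppbp, Gp1ba, Gp1bb, Gp5, Gp6, Gp9, Itga2b, Tubb1, Treml1 and Clec1b), 6 promoters had a GATA motif, 7 an ETS motif and 4 both. These shares describe letters in a window and were not tested.

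Blood was where the members were abundant. In vehicle blood, on a scale of CPM of the counts other than haemoglobin per kilobase of exon, Nrgn stood first at 1388 ± 169.9 (SD, n = 5), followed by Ctla2a at 1152 ± 114, Ppbp at 889 ± 77.5, Gng11 at 654 ± 76.5 and Pf4 at 564 ± 74.2. Nrgn encodes neurogranin, a calmodulin-binding protein, and Ctla2a a protease inhibitor. Gp9 at 312 ± 25.6 and Tubb1, the platelet beta-tubulin, at 279 ± 39.6 came in the upper part of the order, above Itga2b at 205 ± 23.9. Gp9 and Tubb1, neighbors in this order, had overlapping ranges (277 to 346 and 223 to 334), while Ctla2a, Ppbp and Gng11 differed from one to the next by more than their SDs. Trpc6, a calcium-permeable channel, was lowest at 0.843 ± 0.148, below Selp, the P-selectin of the granule membrane, at 2.52 ± 0.588. On the same scale Gp9 stood at 0.0387 ± 0.0394 in vehicle tumor and 0.0618 ± 0.0798 in vehicle sorted cells (n = 4 each), while Bin2 had a higher mean in sorted cells, at 131 ± 21.2, than in blood, at 112 ± 8.37. Fermt3, Thbs1 and Tbxas1 also had a higher mean in sorted cells than in blood, and for Bin2 and Thbs1 the difference was smaller than the SD in sorted cells.

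**Figure D1:**
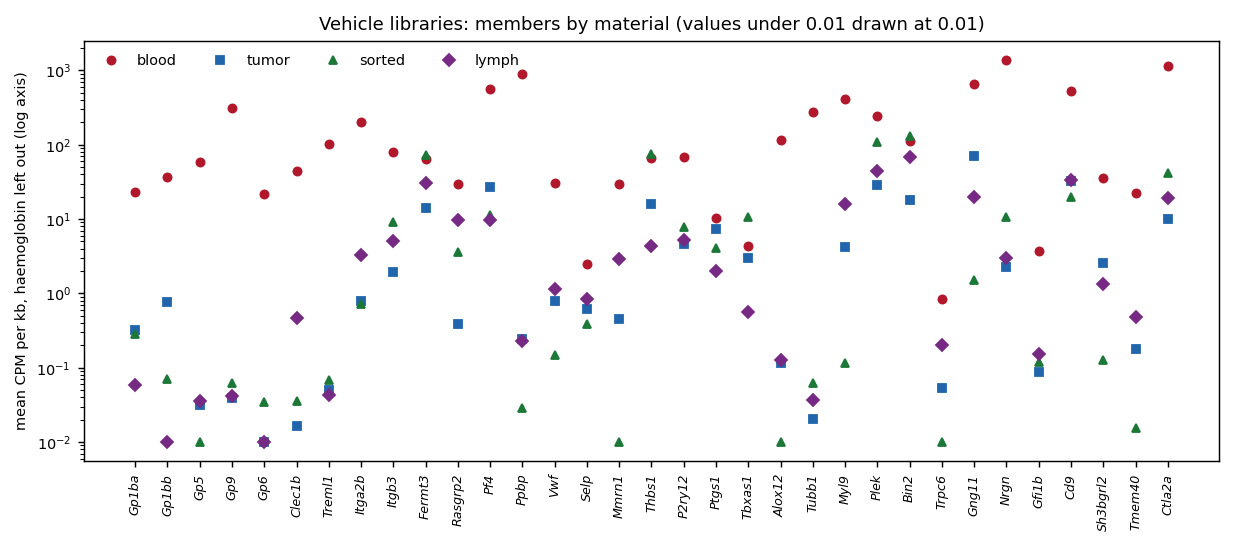
Mean level of each of the 33 members in vehicle libraries of the 4 materials, in CPM of counts other than haemoglobin per kilobase of exon on a log axis, with 5 blood and 4 of each other material. The defining genes sit far higher in blood than elsewhere, and Bin2, Fermt3, Thbs1 and Tbxas1 reach their highest mean in sorted cells.

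With CD40 mAb the platelet genes were higher than with vehicle in blood on libraries scaled by TMM, which aligns the bulk of the genes, and lower when libraries were scaled by all their counts. On the TMM scale 30 of 33 members rose and none fell (edgeR quasi-likelihood test, adjusted p under 0.05 over 12184 genes), where 34.6% of all genes were called and 22.2% were called higher. The members' median log2 change was 1.02, against -0.05 over all genes tested. Rasgrp2, Ppbp and Bin2 did not pass. With ATOR-4066 all 33 changes were positive on the TMM scale, with a median of 0.83 against -0.01 over all genes, but only 2 members, Treml1 and Tmem40, passed the test, where 0.435% of all genes were called, 0.41% higher and 0.0246% lower. At an unadjusted p under 0.05, 31 members differed, as did 15% of all genes. In these bulk libraries, fewer cells of a type and less RNA per cell cannot be told apart.

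**Figure D2:**
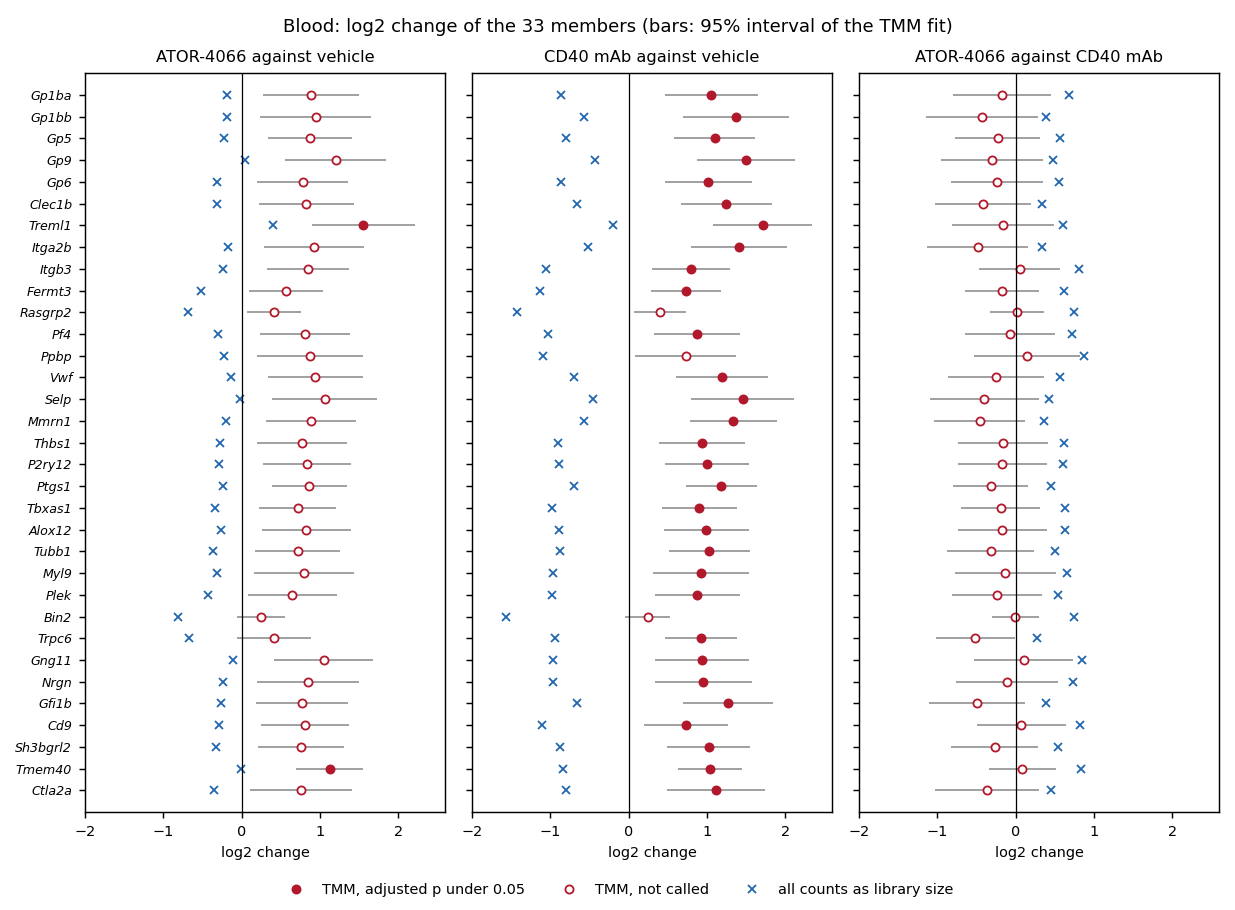
Log2 change of the 33 members in blood for each antibody against vehicle and for ATOR-4066 against CD40 mAb; circles and 95% bars are from the edgeR fit on TMM-scaled libraries (filled where the adjusted p is under 0.05) and crosses use all counts as library size. The circles of CD40 mAb against vehicle lie right of 0 while its crosses lie left of it, so the direction flips with the scaling.

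The GPIb-IX-V complex is the receptor for von Willebrand factor, made of GPIb alpha (Gp1ba), GPIb beta (Gp1bb), GPIX (Gp9) and GPV (Gp5). Gp9 stood at 65.9, 135, 48.5 and 85.1 CPM in ATOR-4066 blood, at 72.4, 113, 97.4, 172 and 58.2 CPM in CD40 mAb blood and at 33.3, 40.2, 39.0, 39.1 and 30.2 CPM in vehicle blood, all on the TMM scale as are the blood levels that follow. Both treated groups lay wholly above vehicle. The log2 change was 1.20 ± 0.31 (SE, edgeR adjusted p = 0.0986) with ATOR-4066 and 1.49 ± 0.30 (adjusted p = 0.0011) with CD40 mAb. Gp1ba was at 11.6, 19.3, 10.6 and 20.8 CPM with ATOR-4066, at 8.999, 24.96, 20.4, 21.7 and 11.7 CPM with CD40 mAb and at 7.39, 9.06, 10.2, 9.61 and 5.88 CPM with vehicle. The ATOR-4066 libraries lay above vehicle, and CD40 mAb replicate 1 fell among the vehicle values. Its change was 0.88 ± 0.29 (adjusted p = 0.177) with ATOR-4066 and 1.05 ± 0.28 (adjusted p = 0.00873) with CD40 mAb. Gp5 was at 25.6, 42.5, 19.6 and 36.2 CPM with ATOR-4066, at 22.6, 44.1, 43.1, 46.6 and 24.7 CPM with CD40 mAb and at 15.8, 19.6, 18.5, 18.5 and 12.2 CPM with vehicle. The treated libraries lay above vehicle, the lowest ATOR-4066 library by less than the rounding. Gp5 differed by 0.87 ± 0.25 (adjusted p = 0.13) with ATOR-4066 and rose by 1.10 ± 0.24 (adjusted p = 0.0026) with CD40 mAb. For Gp1bb the libraries held 18.05, 30.7, 9.16 and 20.5 CPM with ATOR-4066, 14.4, 33.01, 27.1, 41.7 and 15.7 CPM with CD40 mAb and 8.49, 10.9, 12.3, 10.7 and 8.36 CPM with vehicle. Here ATOR-4066 replicate 4 overlapped vehicle and CD40 mAb did not, and Gp1bb rose by 1.37 ± 0.32 (adjusted p = 0.00412) with CD40 mAb. Its values are uncertain, since 91.1% of the exon bases of Gp1bb lie within exons of Sept5 on the same strand.

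Receptors that start activation are glycoprotein VI for collagen (Gp6), CLEC-2 for podoplanin (Clec1b) and the granule-stored receptor TLT-1 (Treml1). Treml1 (ENSMUSG00000023993, chromosome 17, 48359916 to 48367176, GRCm38, plus strand) was at 39.5, 94.7, 35.0 and 58.0 CPM in ATOR-4066 blood, at 46.2, 66.4, 55.3, 109 and 40.4 CPM in CD40 mAb blood and at 16.8, 21.5, 23.7, 19.7 and 15.1 CPM in vehicle blood. Neither treated group overlapped vehicle. Treml1 rose by 1.55 ± 0.31 (edgeR adjusted p = 0.0356) with ATOR-4066 and by 1.71 ± 0.30 (adjusted p = 0.000416) with CD40 mAb, the largest change of a member in both comparisons. Gp6 was at 26.6, 38.2, 16.7 and 34.8 CPM with ATOR-4066, at 23.2, 38.7, 45.5, 44.9 and 18.9 CPM with CD40 mAb and at 13.8, 18.8, 18.6, 19.99 and 13.4 CPM with vehicle. Both treated groups overlapped vehicle by their lowest library. Gp6 rose by 1.02 ± 0.26 (adjusted p = 0.00719) with CD40 mAb. Clec1b was at 51.2, 81.2, 28.5 and 53.4 CPM with ATOR-4066, at 54.0, 82.2, 68.7, 111 and 42.5 CPM with CD40 mAb and at 28.5, 34.4, 32.2, 33.2 and 22.6 CPM with vehicle. CD40 mAb lay above vehicle throughout, ATOR-4066 replicate 4 did not, and the change with CD40 mAb was 1.25 ± 0.28 (adjusted p = 0.00249).

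Integrin alphaIIb beta3 consists of Itga2b and Itgb3, and kindlin-3 (Fermt3) and the Rap activator CalDAG-GEFI (Rasgrp2) switch it on. Itga2b was at 237, 384, 179 and 327 CPM with ATOR-4066, at 222, 517, 425, 540 and 266 CPM with CD40 mAb and at 132, 162, 174, 161 and 113 CPM with vehicle. No treated library fell within the vehicle range. Itga2b rose by 1.41 ± 0.29 (edgeR adjusted p = 0.00149) with CD40 mAb and differed by 0.93 ± 0.30 (adjusted p = 0.171) with ATOR-4066. Its partner Itgb3 rose by 0.80 ± 0.23 (adjusted p = 0.015) with CD40 mAb, and Fermt3 rose by 0.73 ± 0.21 (adjusted p = 0.0139). Rasgrp2 differed by 0.40 ± 0.15 (adjusted p = 0.0543). Itgb3 and Fermt3 are also made by macrophages and other leukocytes, and Rasgrp2 by lymphocytes.

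Alpha granules carry platelet factor 4 (Pf4), the chemokine precursor Ppbp, von Willebrand factor (Vwf), P-selectin (Selp), multimerin (Mmrn1) and thrombospondin-1 (Thbs1). Pf4 was at 83.7, 129, 58.9 and 105 CPM with ATOR-4066, at 66.6, 118, 107, 142 and 62.7 CPM with CD40 mAb and at 47.6, 64.3, 59.5, 57.9 and 40.4 CPM with vehicle. Both treated groups overlapped vehicle by 1 library. Pf4 rose by 0.88 ± 0.26 (edgeR adjusted p = 0.0153) with CD40 mAb. Ppbp was at 237, 311, 118 and 268 CPM with ATOR-4066, at 187, 257, 266, 261 and 86.2 CPM with CD40 mAb and at 108, 151, 138.5, 131 and 110 CPM with vehicle. CD40 mAb replicate 5 lay below every vehicle library, and the change of 0.73 ± 0.30 did not pass (adjusted p = 0.0742). Mmrn1, a carrier of factor V, was at 40.0, 53.9, 24.6 and 51.7 CPM with ATOR-4066, at 36.1, 79.5, 66.8, 75.0 and 34.1 CPM with CD40 mAb and at 20.2, 24.5, 26.4, 24.9 and 19.3 CPM with vehicle. CD40 mAb did not overlap vehicle and the change was 1.34 ± 0.26 (adjusted p = 0.000998), while ATOR-4066 overlapped it by replicate 4. Selp was at 3.18, 4.17, 1.48 and 3.60 CPM with ATOR-4066, at 2.10, 4.61, 4.81, 6.12 and 3.11 CPM with CD40 mAb and at 1.10, 2.00, 1.64, 1.67 and 1.02 CPM with vehicle. Again CD40 mAb lay above vehicle and ATOR-4066 replicate 4 fell inside its range, and Selp rose by 1.46 ± 0.31 (adjusted p = 0.00227) with CD40 mAb. For Vwf the values were 103, 156, 82.0 and 157 CPM with ATOR-4066, 91.3, 189, 184, 187 and 89.1 CPM with CD40 mAb and 52.1, 66.2, 84.0, 70.8 and 51.5 CPM with vehicle. The CD40 mAb libraries lay above vehicle, and Vwf rose by 1.19 ± 0.28 (adjusted p = 0.00342). Selp and Vwf are also endothelial genes.

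Of the ADP receptor and the enzymes that make eicosanoids, all 4 rose with CD40 mAb on the TMM scale, against 22.2% of all genes called higher. Ptgs1 (cyclooxygenase-1) was at 7.69, 13.2, 7.48 and 10.9 CPM with ATOR-4066, at 7.90, 16.6, 13.8, 14.1 and 8.78 CPM with CD40 mAb and at 4.57, 5.68, 6.23, 6.13 and 4.25 CPM with vehicle. Neither treated group overlapped vehicle, and Ptgs1 rose by 1.18 ± 0.21 (edgeR adjusted p = 0.000616) with CD40 mAb and differed by 0.86 ± 0.22 (adjusted p = 0.0986) with ATOR-4066. P2ry12, the ADP receptor, rose by 1.00 ± 0.25 (adjusted p = 0.00636) with CD40 mAb, Tbxas1, the thromboxane synthase, by 0.90 ± 0.22 (adjusted p = 0.00601) and Alox12, the platelet 12-lipoxygenase, by 0.99 ± 0.26 (adjusted p = 0.00713).

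Among the cytoskeletal and signaling members, 6 of 7 rose with CD40 mAb on the TMM scale, where 22.2% of all genes were called higher. Tubb1 was at 85.5, 98.8, 55.1 and 101 CPM with ATOR-4066, at 69.7, 138.1, 116, 140 and 67.8 CPM with CD40 mAb and at 47.2, 55.0, 58.4, 60.4 and 38.8 CPM with vehicle. CD40 mAb lay above vehicle, ATOR-4066 replicate 4 did not, and Tubb1 rose by 1.03 ± 0.25 (edgeR adjusted p = 0.00428) with CD40 mAb. Trpc6 was at 0.651, 0.825, 0.842 and 0.704 CPM with ATOR-4066, at 0.790, 1.38, 0.863, 1.57 and 0.927 CPM with CD40 mAb and at 0.607, 0.484, 0.648, 0.643 and 0.434 CPM with vehicle. Both treated groups lay above vehicle, ATOR-4066 narrowly, and Trpc6 rose by 0.92 ± 0.22 (adjusted p = 0.00399) with CD40 mAb. Myl9, a myosin light chain, rose by 0.92 ± 0.29 (adjusted p = 0.021), Plek, the protein kinase C substrate pleckstrin, by 0.88 ± 0.26, Gng11, a G protein gamma subunit, by 0.94 ± 0.28 and Nrgn by 0.95 ± 0.29. Bin2, a membrane-bending protein, differed by 0.25 ± 0.14 with CD40 mAb (adjusted p = 0.169) and by 0.25 ± 0.14 with ATOR-4066 (adjusted p = 0.434), the smallest change of the list in both.

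The remaining members are the transcriptional repressor Gfi1b, the tetraspanin Cd9, Sh3bgrl2, the membrane protein Tmem40 and Ctla2a. All 5 rose with CD40 mAb on the TMM scale, where 22.2% of all genes were called higher. Tmem40 (ENSMUSG00000059900, chromosome 6, 115729131 to 115762410, GRCm38, minus strand) was at 11.8, 19.98, 10.3 and 13.9 CPM with ATOR-4066, at 9.55, 13.2, 14.3, 18.1 and 10.8 CPM with CD40 mAb and at 6.39, 7.01, 6.82, 6.995 and 4.79 CPM with vehicle. No treated library overlapped vehicle. Tmem40 rose by 1.12 ± 0.20 (edgeR adjusted p = 0.0269) with ATOR-4066 and by 1.04 ± 0.19 (adjusted p = 0.000694) with CD40 mAb. Gfi1b was at 1.64, 1.37, 1.30 and 1.77 CPM with ATOR-4066, at 0.973, 2.76, 1.91, 3.64 and 1.96 CPM with CD40 mAb and at 0.692, 0.985, 1.19, 0.958 and 0.679 CPM with vehicle. ATOR-4066 lay above vehicle, CD40 mAb replicate 1 did not, and Gfi1b rose by 1.26 ± 0.27 (adjusted p = 0.00202) with CD40 mAb. Cd9 rose by 0.73 ± 0.25, Sh3bgrl2 by 1.02 ± 0.25 and Ctla2a by 1.12 ± 0.30 with CD40 mAb. Ctla2a is uncertain, because it has the close paralog Ctla2b and shares 16.3% of its exon bases with Gm49391.

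**Figure D3:**
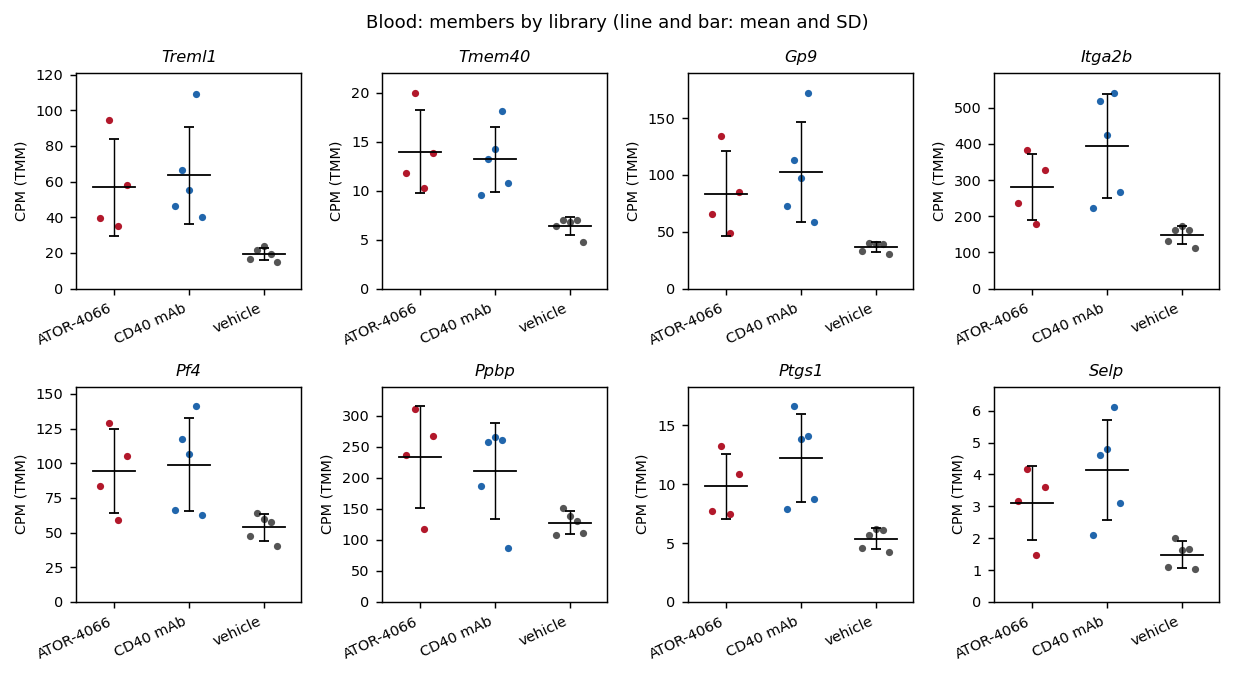
Level of 8 members in each blood library (CPM on the TMM scale); points are libraries, the line is the mean and the bar the SD, for 4 ATOR-4066, 5 CD40 mAb and 5 vehicle libraries. Treml1, Tmem40, Gp9, Itga2b and Ptgs1 show no overlap of either treated group with vehicle on this scale, and Pf4, Ppbp and Selp overlap it in at least 1 group. With all counts as library size the CD40 mAb changes of these 8 members turn negative.

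Between the 2 antibodies, none of the 33 members differed in blood on the TMM scale (edgeR, where 13.1% of all genes were called). At an unadjusted p under 0.05 only Trpc6 did, with a log2 change of -0.51 ± 0.24 for ATOR-4066 against CD40 mAb (adjusted p = 0.18), where 26.3% of all genes differed at that level, and DESeq2 also called 0, where it called 16.2% of all genes. Their median change was -0.19. The 95% interval of the difference was -0.81 to 0.49 for Treml1 and -0.53 to 0.82 for Ppbp, so differences of that size cannot be told from none. The small number of calls for ATOR-4066 against vehicle rested on single libraries. Without any of vehicle replicates 1 to 5 or ATOR-4066 replicate 3, 0 members were called, without ATOR-4066 replicate 5 there was 1 and without replicate 4 there were 5. DESeq2 called 14 members where it called 3.69% of all genes, and an edgeR fit of only these 2 groups called 27 where it called 8.82%.

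The scale decided the direction in blood. The summed level of the 11 defining genes on the TMM scale was 882, 1364, 579 and 1111 CPM with ATOR-4066, 787, 1433, 1272, 1629 and 694 CPM with CD40 mAb and 459, 586, 584, 561 and 411 CPM with vehicle. As a share of the counts other than haemoglobin, the same sum was 4029, 7185, 3995 and 7093 CPM with ATOR-4066, 4105, 3133, 3636, 2691 and 1673 CPM with CD40 mAb and 3732, 4185, 4013, 4365 and 3319 CPM with vehicle. As a share of all counts it was 884, 850, 558 and 1322 CPM with ATOR-4066, 772, 670, 754, 511 and 377 CPM with CD40 mAb and 978, 1021, 964, 1317 and 860 CPM with vehicle. So CD40 mAb lay above vehicle on the TMM scale, overlapped it from below without haemoglobin and lay wholly below it as a share of all counts, while ATOR-4066 overlapped vehicle on all 3 scales. Using all counts as library size, 28 members were called lower and none higher with CD40 mAb, where 87.4% of all genes were called lower, at a median of -0.87 where the median of all genes was -1.83, so relative to all genes the members' median was 0.96. Using counts other than haemoglobin, 14 were called lower and none higher, where 81.9% of all genes were called lower, at a median of -0.50 where that of all genes was -1.45, so 0.95 relative to all genes. For ATOR-4066 against vehicle, all counts gave 2 members lower, Rasgrp2 and Bin2, where 75.2% of all genes were called lower. The members' median was -0.27, and 0.81 relative to all genes. Counts other than haemoglobin gave 0 at a median of 0.42 (0.82 relative to all genes), where 0% of all genes were called. Against CD40 mAb, ATOR-4066 gave 9 members higher with all counts, where 19% of all genes were called higher. Counts other than haemoglobin gave 32 higher, where 71.3% of all genes were. Relative to all genes the members' median was -0.11 with all counts and -0.12 with counts other than haemoglobin, so they rose slightly less than the typical gene. These library sizes were chosen after seeing the data. Removing haemoglobin genes and then applying TMM left the counts of calls at 2 for ATOR-4066 against vehicle, 30 for CD40 mAb against vehicle and 0 between the antibodies. The share of all genes called in that setting is not given here, so these counts describe the setting and not the members.

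**Figure D4:**
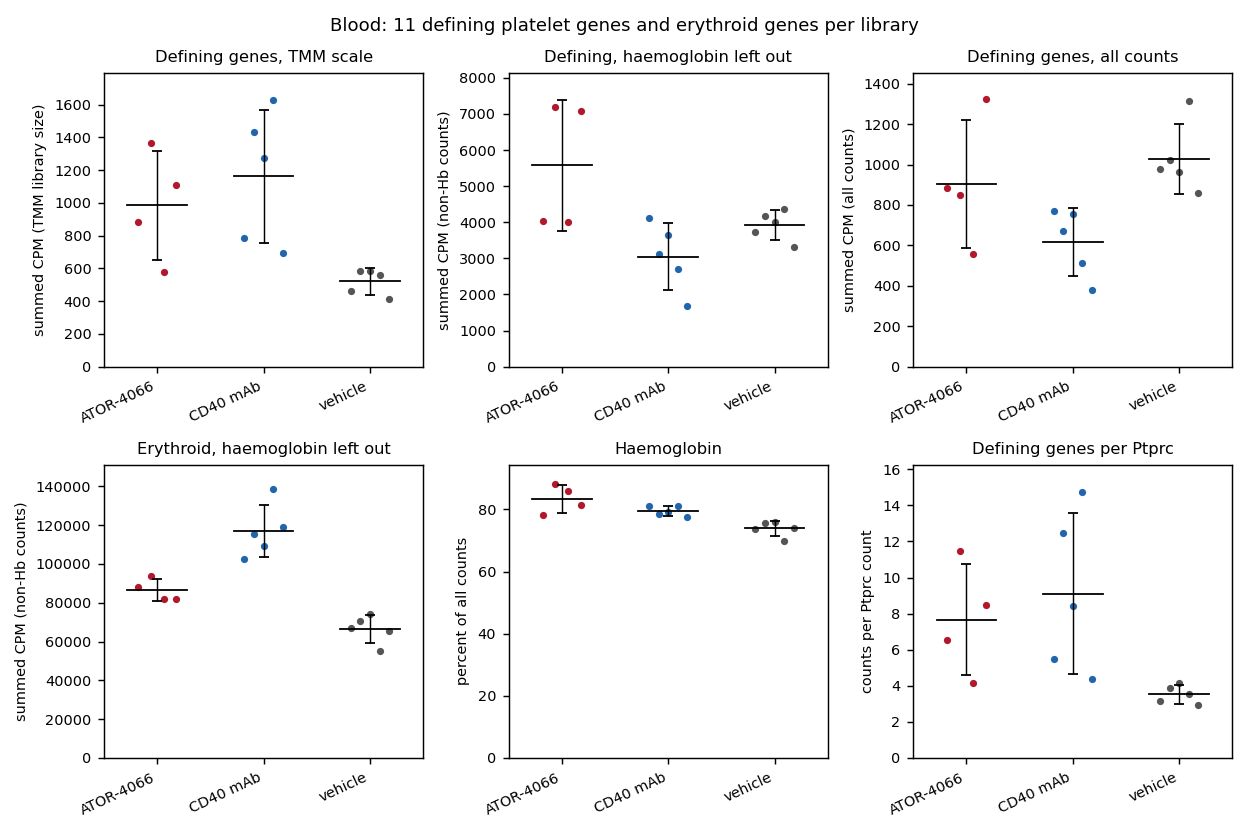
Per blood library: summed CPM of the 11 defining genes on 3 scales, summed CPM of 8 erythroid genes with haemoglobin left out, haemoglobin as percent of all counts, and defining counts per Ptprc count; points are libraries, line and bar the mean and SD, n = 4, 5 and 5. The defining genes of CD40 mAb blood lie above vehicle on the TMM scale and below it as CPM of all counts, and the erythroid sums, plotted as CPM of counts other than haemoglobin, lie higher in both treated groups, which as CPM of all counts held for CD40 mAb and not for ATOR-4066.

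Erythroid RNA moved with these scales. Haemoglobin took 78.1%, 88.2%, 86.0% and 81.4% of counts with ATOR-4066, 81.2%, 78.6%, 79.3%, 81.0% and 77.5% with CD40 mAb and 73.8%, 75.6%, 76.0%, 69.8% and 74.1% with vehicle, so both treated groups lay above vehicle. All 8 erythroid markers other than haemoglobin rose with CD40 mAb on the TMM scale, at a median of 3.53, where 22.2% of all genes were called higher. None of these markers passed with ATOR-4066, at a median of 0.88, where 0.435% of all genes were called. As CPM of counts other than haemoglobin they summed to 81854 to 93869 with ATOR-4066, 102739 to 138543 with CD40 mAb and 55210 to 74434 with vehicle. As CPM of all counts the sums were 11105 to 19338 with ATOR-4066, 19318 to 26773 with CD40 mAb and 16655 to 17889 with vehicle, so that CD40 mAb lay above vehicle on both scales and ATOR-4066 overlapped it on the second, with a lower mean of 14292 against 17250. Set against 1 leukocyte gene, Ptprc, the picture was that of the TMM scale. Per count of Ptprc (CD45, chosen after its values were seen), the defining genes gave 6.51, 11.5, 4.18 and 8.48 counts with ATOR-4066, 5.48, 12.5, 8.41, 14.8 and 4.36 with CD40 mAb and 3.13, 3.88, 4.16, 3.53 and 2.93 with vehicle. Both treated groups lay above vehicle, ATOR-4066 replicate 4 narrowly. Ptprc itself had fewer counts in treated blood, at 2599 to 6146 with ATOR-4066, 1335 to 4722 with CD40 mAb and 8231 to 13761 with vehicle. The defining genes had 22697 to 52101, 12730 to 28004 and 30263 to 46266 counts in the same order. Per neutrophil marker count their mean was 5.99 with ATOR-4066, 3.14 with CD40 mAb and 4.95 with vehicle, so the picture depended on the leukocyte genes used. Per 1000 counts of erythroid markers the defining genes gave 45.7, 76.5, 48.7 and 86.7 with ATOR-4066, 40.0, 27.1, 33.3, 19.4 and 14.1 with CD40 mAb and 55.6, 59.4, 53.9, 79.1 and 50.9 with vehicle. By that measure CD40 mAb lay wholly below vehicle. Each ratio is a description, and the part of erythroid RNA in the platelet values was not tested.

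Other cell types moved in CD40 mAb blood as well on the TMM scale, where 22.2% of all genes were called higher and 12.4% lower. All 9 neutrophil markers rose (median 2.29; sums of 89.3 to 246 CPM with ATOR-4066, 158 to 868 CPM with CD40 mAb and 67.2 to 162 CPM with vehicle), and 5 of 6 B cell markers fell (median -0.97; 211 to 280, 100 to 256 and 256 to 317 CPM). None of 7 T cell markers passed the test (median -0.11; 59.9 to 63.2, 49.5 to 67.8 and 50.9 to 76.1 CPM). Of 6 macrophage markers tested, 1 rose and 3 fell, and their sums were 41.3 to 49.04 CPM with ATOR-4066, 23.0 to 55.7 CPM with CD40 mAb and 42.8 to 66.8 CPM with vehicle. Of 10 endothelial markers 4 passed the filter on low counts and 3 rose, with sums of 29.0 to 43.8, 29.6 to 48.8 and 23.5 to 32.0 CPM in the same order. The part of these cells in the platelet values was not tested.

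Genes of the pathway outside the 33 followed in part on the TMM scale. With CD40 mAb against vehicle, 22.2% of all genes were called higher and 12.4% lower. Of the megakaryocyte regulators 6 of 9 tested rose with CD40 mAb and none fell, led by Gata1 at 2.5 and Nfe2 at 2.26, which also act in red cell precursors. Of platelet receptors and signaling proteins 16 of 23 rose and 2 fell, Plcg2 by 0.51 and Tbxa2r by 0.64 on the log2 scale. The scavenger receptor Cd36 rose by 3.55. Of granule and secretion genes 10 of 15 rose, and of cytoskeletal genes 4 of 8, led by the tubulin Tuba4a at 1.98. With ATOR-4066 against vehicle none of these 55 genes passed, where 0.435% of all genes were called. Those of smallest p were Serpine2 at 1.31 (edgeR adjusted p = 0.064), Tuba8 at 0.91, Pdgfa at 0.81 and Cd151 at 1.10. Between the antibodies 4 regulators, Cd36 and Tuba4a were lower with ATOR-4066, Cd36 by 2.99 and Gata1 by 1.72, where 10.8% of all genes were called lower. All 8 erythroid markers were lower too, at a median of -2.40.

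Within treatments the members varied together from library to library. Haemoglobin genes were left out, the rest was scaled by TMM, and treatment means were removed from log2 CPM. Over the 14 blood libraries, 30 of 33 members then correlated above 0.8 with the mean of the defining genes. Pf4 was highest at 0.994 and Trpc6 lowest at 0.54. Gfi1b stood at 0.66 and Bin2 at 0.71. For a defining gene the mean was taken over the other defining genes, so that it was not correlated with itself. All genes of a library share its depth, haemoglobin content and TMM factor. The median over 12185 genes was -0.02. The share of all genes above 0.8 was not counted, so the high correlations are not shown to be particular to the members. The genes outside the list most like it were Pttg1ip at 0.993, Zfand3 at 0.991, P2rx1, a platelet ATP receptor, at 0.990, H2bc4 at 0.987, Gatad1 at 0.984, Aldh2, the adhesion molecule Esam and clusterin (Clu), each at 0.982, Galnt2 at 0.981 and Srxn1 at 0.980. The deviation of a library from its group on this scale reached 0.57 for ATOR-4066 replicate 3 and -0.67 for ATOR-4066 replicate 4, and 0.60 for CD40 mAb replicate 4 and -0.67 for CD40 mAb replicate 5. The vehicle libraries stayed between -0.35 and 0.21.

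In whole tumor the defining platelet genes were scarce. Of the 33 members 28 passed the filter on low counts, and Gp5, Gp9, Gp6, Clec1b and Tubb1 did not, with at most 12, 7, 15, 35 and 12 counts in a library. Pf4 (ENSMUSG00000029373, chromosome 5, 90772435 to 90773383, GRCm38, plus strand) was the 1 member called with ATOR-4066 against vehicle, where 1.32% of all genes were called. It stood at 58.6, 151, 49.8 and 71.8 CPM with ATOR-4066, at 63.3, 22.6, 37.7, 49.1 and 92.7 CPM with CD40 mAb and at 22.7, 17.8, 15.5 and 19.4 CPM with vehicle. ATOR-4066 lay above vehicle throughout and CD40 mAb overlapped it by replicate 2 alone. Pf4 rose by 2.13 ± 0.42 with ATOR-4066 (edgeR adjusted p = 0.042) and differed by 1.5 ± 0.40 with CD40 mAb (adjusted p = 0.412). The call was lost when any 1 of the 8 ATOR-4066 and vehicle libraries was left out, with changes from 1.70 to 2.31, and when the left-out tumor library was kept. At an unadjusted p under 0.05, 11 of the 28 members tested differed, as did 24.7% of all genes, and DESeq2 called 8, of which 5 were higher and 3 lower, where it called 13.3% of all genes. Pf4 is also made by some macrophages, and the other granule chemokine, Ppbp, reached 0.824, 3.07, 0.398 and 1.26 CPM with ATOR-4066 and 0.286, 0.313, 0.279 and 0.161 CPM with vehicle. The Ppbp groups did not overlap, and its change of 2.41 ± 0.71 did not pass (adjusted p = 0.0793).

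Other members in tumor leaned in different directions without passing. Thbs1 was at 210, 677, 763 and 160 CPM with ATOR-4066, at 68.3, 57.6, 106, 83.5 and 327 CPM with CD40 mAb and at 91.4, 110, 107 and 72.6 CPM with vehicle. ATOR-4066 did not overlap vehicle, and the change was 2.25 ± 0.61 (edgeR adjusted p = 0.0674). P2ry12 was at 4.58, 7.21, 4.51 and 3.41 CPM with ATOR-4066, at 6.91, 15.1, 14.6, 6.94 and 9.997 CPM with CD40 mAb and at 13.4, 9.38, 12.8 and 10.99 CPM with vehicle. Here ATOR-4066 lay below vehicle, with a change of -1.24 ± 0.31 (adjusted p = 0.0563). Gng11, which had the highest level per kilobase of the members in vehicle tumor at 71.2 ± 13.1, was at 29.5, 23.7, 39.0 and 38.6 CPM with ATOR-4066, against 58.9, 50.1, 77.6 and 68.6 CPM with vehicle. Those groups did not overlap either, and the change was -0.96 ± 0.25 (adjusted p = 0.0609). Beside these, 3 of 6 neutrophil markers tested rose with ATOR-4066 (median 3.72; sums of 16.4 to 137.6 CPM with ATOR-4066, 4.19 to 86.0 CPM with CD40 mAb and 3.43 to 5.36 CPM with vehicle), and 1 of 8 macrophage markers fell (2287 to 3605, 1833 to 7217 and 2806 to 3581 CPM). Of all genes 0.916% were called higher with ATOR-4066 against vehicle and 0.401% lower. The part of these cell types in the member values was not tested.

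No member was called in tumor with CD40 mAb against vehicle (edgeR, where 0% of all genes were called). At an unadjusted p under 0.05 there were 5, beside 11.9% of all genes, and DESeq2 called 0, beside 0.142% of all genes. Between the antibodies edgeR called 0 members too, where 0.0325% of all genes were called, with 5 at an unadjusted p under 0.05 (10.2% of all genes) and 1 by DESeq2 (1.72%). Without CD40 mAb replicate 5, which was high in Pf4 and Thbs1, 1 member was called.

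The sorted CD45+Ly6G- tumor cells held members that leukocytes make themselves. Of the 33, 23 passed the filter, and Gp5, Gp9 and Treml1 reached at most 6, 7 and 10 counts in a library. With ATOR-4066 against vehicle 3 members fell and 1 rose, where 11.9% of all genes were called, 6.76% higher and 5.11% lower. P2ry12 (ENSMUSG00000036353, chromosome 3, 59216272 to 59262871, GRCm38, minus strand) was at 4.58, 1.31 and 4.83 CPM with ATOR-4066, at 14.6, 21.7 and 18.01 CPM with CD40 mAb and at 19.9, 20.4, 15.5 and 24.2 CPM with vehicle. Every ATOR-4066 library lay below both other groups. P2ry12 dropped by 2.48 ± 0.40 against vehicle (edgeR adjusted p = 0.0102) and by 2.34 ± 0.41 against CD40 mAb (adjusted p = 0.0163). Ptgs1 was at 5.57, 3.97 and 3.28 CPM with ATOR-4066, at 11.8, 27.1 and 18.5 CPM with CD40 mAb and at 17.5, 20.9, 9.80 and 13.8 CPM with vehicle. Again ATOR-4066 lay below both, with drops of 1.86 ± 0.35 (adjusted p = 0.0124) against vehicle and 2.16 ± 0.37 (adjusted p = 0.014) against CD40 mAb. Tbxas1 was at 43.5, 10.8 and 38.3 CPM with ATOR-4066, at 124, 120 and 184 CPM with CD40 mAb and at 90.8, 89.4, 100 and 101 CPM with vehicle. It dropped by 1.63 ± 0.39 (adjusted p = 0.0281) against vehicle and by 2.21 ± 0.42 (adjusted p = 0.0197) against CD40 mAb, with no overlap.

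Members of the integrin group went the other way in sorted cells. Itgb3 was at 115, 190 and 172 CPM with ATOR-4066, at 84.9, 91.6 and 25.2 CPM with CD40 mAb and at 62.8, 60.8, 54.4 and 35.1 CPM with vehicle. ATOR-4066 lay above both groups. Itgb3 rose by 1.58 ± 0.39 against vehicle (edgeR adjusted p = 0.0302) and differed by 1.24 ± 0.42 against CD40 mAb (adjusted p = 0.0949), while its platelet partner Itga2b did not pass. Rasgrp2 was at 123, 103 and 51.4 CPM with ATOR-4066, at 42.0, 17.6 and 33.5 CPM with CD40 mAb and at 39.1, 54.8, 39.3 and 44.6 CPM with vehicle. ATOR-4066 lay above CD40 mAb and overlapped vehicle by replicate 10. Rasgrp2 rose by 1.57 ± 0.36 against CD40 mAb (adjusted p = 0.0316), 1 of 4 members called there with P2ry12, Ptgs1 and Tbxas1, where 8.23% of all genes were called, 5.27% higher and 2.96% lower. Those 4 calls were all lost without CD40 mAb replicate 10 and in a fit of only these 2 groups, and DESeq2 called 7, where it called 18.2% of all genes. Against vehicle, 2 members were called without vehicle replicate 6, 9 or 10, and up to 6 without another library. The macrophage markers moved alongside, with 4 of 8 lower in both comparisons and sums of 491 to 2716 CPM with ATOR-4066, 4096 to 8681 CPM with CD40 mAb and 4350 to 5715 CPM with vehicle. All 7 T cell markers rose, with sums of 1647 to 3953, 290 to 604 and 610 to 920 CPM. Their part in these 4 members was not tested.

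Pf4 was the defining gene with the most counts in sorted cells. It stood at 17.4, 2.53 and 13.4 CPM with ATOR-4066, at 74.9, 24.0 and 124 CPM with CD40 mAb and at 10.95, 2.54, 13.02 and 6.38 CPM with vehicle. CD40 mAb lay above both other groups, and the changes of 3.17 ± 0.74 for CD40 mAb against vehicle (edgeR adjusted p = 0.067) and -2.74 ± 0.81 for ATOR-4066 against CD40 mAb (adjusted p = 0.0638) did not pass. With CD40 mAb against vehicle 4 members differed at an unadjusted p under 0.05 (19% of all genes) and DESeq2 called 2 (9.2%). There edgeR called 0 members, where 1.09% of all genes were called, 0.534% higher and 0.558% lower. Gp5, a defining platelet gene that did not pass the filter, had 6, 1 and 0 counts with ATOR-4066, 0 in all 3 CD40 mAb libraries and 0 in all 4 vehicle libraries. The library with 6 counts, ATOR-4066 replicate 6, had 0.602% haemoglobin, against at most 0.0361% in the other sorted libraries. The part of blood RNA in these counts was not tested.

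**Figure D5:**
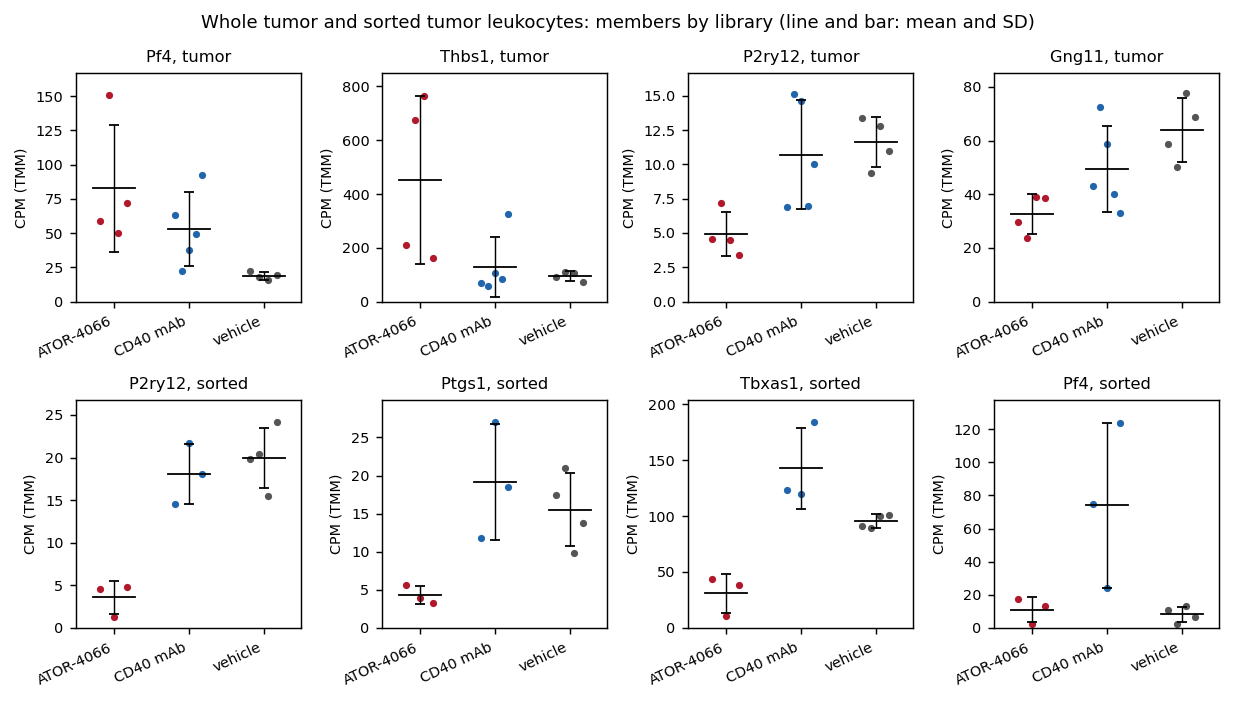
Level of 4 members in each whole tumor library (upper row) and each library of sorted CD45+Ly6G- cells (lower row), in CPM on the TMM scale; points are libraries, the line is the mean and the bar the SD. Pf4 in ATOR-4066 tumor lies above vehicle, and P2ry12, Ptgs1 and Tbxas1 in ATOR-4066 sorted cells lie below both other groups.

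In lymph node no member was called in any of the 3 comparisons, with 25 of 33 passing the filter. With ATOR-4066 against vehicle, edgeR called 0, where 0% of all genes were called, with 6 at an unadjusted p under 0.05 (15.8% of all genes) and 2 by DESeq2 (2.6%). With CD40 mAb against vehicle edgeR called 0, where 0.0643% were called (0.0482% higher, 0.0161% lower), with 7 at an unadjusted p under 0.05 (23.6%) and 4 by DESeq2 (9.64%). Between the antibodies edgeR called 0, where 0.0161% were called (0.00536% higher, 0.0107% lower), with 5 at an unadjusted p under 0.05 (9.32%) and 0 by DESeq2 (0.714%). Pf4 was at 4.27, 1.32, 0.808, 2.17 and 3.61 CPM with ATOR-4066, at 3.38, 1.40, 3.64 and 2.07 CPM with CD40 mAb and at 12.5, 5.63, 5.88 and 3.83 CPM with vehicle. CD40 mAb lay below vehicle and ATOR-4066 overlapped it, with a change of -1.51 ± 0.49 (adjusted p = 0.228) for ATOR-4066. Itga2b was at 13.1, 18.7, 13.8, 22.9 and 20.8 CPM with ATOR-4066, at 27.0, 21.5, 25.7 and 26.3 CPM with CD40 mAb and at 13.7, 19.1, 16.2 and 21.3 CPM with vehicle. CD40 mAb lay above vehicle, and its change of 0.52 ± 0.18 did not pass (adjusted p = 0.132). None of the 4 GPIb-IX-V genes passed the filter there.

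The treatment effects in blood were set against those in tumor and lymph node in 1 model over the 3 materials (voomLmFit). Its random block was the animal as read from the titles, and the correlation within blocks was estimated at -0.02. The ATOR-4066 effect on P2ry12 was 1.96 ± 0.44 higher in blood than in tumor (limma adjusted p = 0.0284) and that on Gng11 1.86 ± 0.39 higher (adjusted p = 0.0207), where 0.715% of all genes were called. The CD40 mAb effect on Gng11 was 1.16 higher in blood than in tumor (adjusted p = 0.0415), where 8.64% were called. Against lymph node, the CD40 mAb effect was 1.54 higher in blood for Sh3bgrl2 (adjusted p = 0.0122) and 2.25 higher for Tmem40 (adjusted p = 0.0347), where 11% were called. For ATOR-4066 in blood against lymph node 0 members were called, where 0.0686% were called, with 15 at an unadjusted p under 0.05 (10.9% of all genes), and edgeR without the block also called 0. These differences were taken on the TMM scale, and other library sizes changed them in part. With counts other than haemoglobin as library size, 2 members were still called higher for ATOR-4066 in blood against tumor, where 1.4% of all genes were called. With all counts as library size the ATOR-4066 difference of P2ry12 was 1.00 (adjusted p = 0.0725) and that of Gng11 0.87 (adjusted p = 0.051), and for CD40 mAb Gng11 and Sh3bgrl2 turned negative, at -0.52 against tumor and -0.12 against lymph node. Keeping the 2 left-out libraries left 0 calls against tumor for each antibody and 1 against lymph node for CD40 mAb.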

How the data were processed

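RNA from 52 libraries was sequenced, and 50 were used. The values the authors deposited are estimated counts for each gene, from salmon per the table's name. Reads were processed with STAR (version given as 5.1) on GRCm38, per the submitters' processing notes. Poly(A) RNA went into a stranded mRNA kit, per the labels' protocols; the sources used here do not give the annotation and strand setting of the counting, so reads of overlapping or antisense genes may not be told apart. Fractional values made up 11% of the deposited cells, and all values were rounded.

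For each material, 1 fit held the 3 treatments, in edgeR 4.0.16 (R 4.3.3) with filterByExpr (minimum count 10, total 15), TMM factors and the robust quasi-likelihood F test, adjusted by Benjamini-Hochberg over all genes tested. A call is an adjusted p under 0.05, ± beside a log2 change is the SE, and CPM without another scale named uses TMM library sizes. Differences between materials used voomLmFit (limma 3.58.1). The steps were tested on simulated data with few genes changed, up and down alike. That setting could not test the choice of library size in blood. DESeq2 1.42.0, RLE factors, no filter, haemoglobin genes (12) left out, fits of 2 groups, the replicate number as a block, each library left out and the 2 libraries kept were alternatives. Coordinates are from GENCODE vM21, in which 52029 of the 57010 identifiers were found. Intervals cover the spread between libraries only, and depth limits members with few counts outside blood.

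The members and lists were chosen with earlier results of these data known. By rule all members are accounted for by role, with full blood values for the 11 defining genes and the 12 called members of smallest p, and the 4 genes of smallest p named from the other pathway lists.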

Additional observations from a re-analysis of the deposited data

Results flagged for a closer look

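Tmem40 in vehicle blood replicate 5 stood at 4.79 CPM on the TMM scale, apart from the other 4 vehicle libraries at 6.39 to 7.01 CPM. It was the 1 group of 72 tested in which the highest or lowest library stood that far from the rest, and chance gives about 1 in 20 groups.

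A drug effect differed between materials in 5 cases by a test of the difference itself, all on the TMM scale (limma, adjusted over all genes). The ATOR-4066 effect on P2ry12 was 1.96 ± 0.44 higher on the log2 scale in blood than in tumor (adjusted p = 0.0284), and that on Gng11 was 1.86 ± 0.39 higher (adjusted p = 0.0207). There 2 of 33 members were called, beside 0.715% of all genes, and neither passed with all counts as library size. The CD40 mAb effect on Gng11 was 1.16 higher in blood than in tumor (adjusted p = 0.0415) and was -0.52 with all counts as library size. It was 1 of 33 members called, beside 8.64% of all genes. The CD40 mAb effects on Sh3bgrl2 and Tmem40 were 1.54 and 2.25 higher in blood than in lymph node (adjusted p = 0.0122 and 0.0347), and Sh3bgrl2 was at -0.12 with all counts as library size. These were 2 of 33 members, beside 11% of all genes called. Keeping the 2 left-out libraries left 0 calls against tumor for each antibody and 1 against lymph node for CD40 mAb.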

How the results depend on the processing

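Changing the library size, an alternative added after seeing the data, turned most platelet genes round in CD40 mAb blood. With all counts as library size, 2 members were called lower with ATOR-4066 and 28 with CD40 mAb against vehicle, and 9 were called higher with ATOR-4066 against CD40 mAb. In the same order 75.2%, 87.4% and 19% of all genes were called that way. With counts other than haemoglobin these counts were 0, 14 and 32, beside 0%, 81.9% and 71.3% of all genes. The log2 changes with CD40 mAb against vehicle were then, with all counts, Gp1ba -0.86, Gp1bb -0.57, Gp5 -0.80, Gp9 -0.43, Gp6 -0.86, Clec1b -0.65, Treml1 -0.20, Itga2b -0.51, Itgb3 -1.05, Fermt3 -1.13, Pf4 -1.02, Vwf -0.70, Selp -0.45, Mmrn1 -0.56, Thbs1 -0.89, P2ry12 -0.89, Ptgs1 -0.69, Tbxas1 -0.98, Alox12 -0.89, Tubb1 -0.87, Myl9 -0.97, Plek -0.98, Trpc6 -0.94, Gng11 -0.96, Nrgn -0.96, Gfi1b -0.66, Cd9 -1.10, Sh3bgrl2 -0.87, Tmem40 -0.84, Ctla2a -0.79. With counts other than haemoglobin they were Gp1ba -0.50, Gp1bb -0.21, Gp5 -0.43, Gp9 -0.050, Gp6 -0.49, Clec1b -0.27, Treml1 0.18 (not turned), Itga2b -0.15, Itgb3 -0.68, Fermt3 -0.76, Pf4 -0.65, Vwf -0.33, Selp -0.088, Mmrn1 -0.20, Thbs1 -0.52, P2ry12 -0.51, Ptgs1 -0.33, Tbxas1 -0.61, Alox12 -0.52, Tubb1 -0.49, Myl9 -0.59, Plek -0.60, Trpc6 -0.57, Gng11 -0.58, Nrgn -0.59, Gfi1b -0.30, Cd9 -0.73, Sh3bgrl2 -0.50, Tmem40 -0.46, Ctla2a -0.42. Tmem40 with ATOR-4066 was at -0.0031 with all counts. Of differences between materials, all counts gave 6 members lower for ATOR-4066 in blood against tumor and 1 higher against lymph node, where 37.8% and 38.5% of all genes were called, and 15 and 7 lower for CD40 mAb, where 55.7% and 54.3% were (Gng11 -0.52, Sh3bgrl2 -0.12). Counts other than haemoglobin gave 2 members higher for ATOR-4066 against tumor and 0 against lymph node, where 1.4% and 0.00942% of all genes were called. For CD40 mAb they gave 6 and 3 lower, where 47.7% and 46.7% were called (Gng11 -0.18). The cause was not tested.

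For ATOR-4066 against vehicle in blood, DESeq2 called 14 members, where it called 3.69% of all genes. A fit of those 2 groups called 27, where 8.82% of all genes were called. The replicate block gave 0, and leaving out 1 library gave 0 to 5. Counts in this paragraph without a share of all genes beside them describe the settings and not the members. CD40 mAb against vehicle gave 27 to 32 without 1 library and 29 with the replicate block, and ATOR-4066 against CD40 mAb 0 to 1 and 0. In tumor, ATOR-4066 against vehicle gave 0 with no filter, with the block, with the left-out library kept and without any 1 library. It gave 8 by DESeq2, where 13.3% of all genes were called, and 9 with 2 groups. ATOR-4066 against CD40 mAb gave 1 by DESeq2, where 1.72% of all genes were called, and 0 to 1 without 1 library. In sorted cells, ATOR-4066 against vehicle gave 2 with no filter, 4 with the block and 2 to 6 without 1 library. CD40 mAb against vehicle gave 2 by DESeq2, where 9.2% of all genes were called, 1 with 2 groups and 0 to 1 without 1 library. ATOR-4066 against CD40 mAb gave 7 by DESeq2, where 18.2% of all genes were called. It gave 2 with no filter or the block, 0 with 2 groups and 0 to 5 without 1 library. In lymph node DESeq2 called 2 and 4 with ATOR-4066 and CD40 mAb against vehicle, where it called 2.6% and 9.64% of all genes. Keeping the left-out libraries left 0, 0 and 1 differences between blood and tumor (ATOR-4066, CD40 mAb) and lymph node (CD40 mAb). There 0.044%, 4.48% and 6.05% of all genes were called. For the last, edgeR without the block called 6, where 17.3% of all genes were called. The replicate numbers do not pair libraries across treatments (correlation of deviations from -0.22 to 0.14 over 13 pairs in blood), so they are only numbers. Few counts limit the defining genes outside blood, and 3 or 4 libraries a group limit the sorted cells.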

Other observations

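Both libraries left out of the comparisons lay outside the range of their labelled groups in the summed level of the defining genes. Outside blood this sum is no measure of platelets alone, since Pf4 is also made by some macrophages. The defining genes summed to 43.98 CPM of all counts in the left-out ATOR-4066 tumor library, against 54.1 to 176 CPM in the other ATOR-4066 tumors, and to 36.9 CPM in the left-out vehicle lymph node library, against 25.3 to 29.3 CPM in the remaining lymph nodes of the vehicle group.

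Per neutrophil marker count, the defining genes in blood gave 4.17, 5.55, 6.49 and 7.73 counts with ATOR-4066, 4.99, 3.52, 3.73, 2.65 and 0.80 with CD40 mAb and 4.57, 3.63, 6.44, 4 and 6.11 with vehicle. Both treated groups overlapped vehicle on this ratio. Per count of the B and T cell markers they gave 3.06, 5.03, 1.69 and 3.58 with ATOR-4066, 2.43, 8.11, 6.39, 9.89 and 4.19 with CD40 mAb and 1.42, 1.73, 1.72, 1.80 and 1.12 with vehicle. CD40 mAb lay above vehicle there, and ATOR-4066 did so but for replicate 4.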
